A study of Mus musculus with 24 samples.

Results

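The hedgehog pathway genes Shh, Ihh, Ptch1, Smo, Gli1, Gli2, Gli3 and Hhip were followed in mouse lungs that lacked Vangl2 or Ror2 in the SOX9-expressing lineage. They were taken by gene symbol, and all 8 were found, once each, among the 23420 genes of every table of normalized counts. The RNA came from the left lung lobe of 24 animals in 8 groups of 3, with a control and a mutant group for each of the 4 comparisons: Vangl2 P2, Vangl2 P5, Ror2 P2 and Ror2 P5 (P2 and P5 are postnatal days 2 and 5). Mutants were Vangl2f/f; Sox9Cre/+ or Ror2f/f; Sox9Cre/+ mice, and each mutant group had its own 3 control lungs, labelled WT. The titles call them Control(Vangl1/2) beside the Vangl2 mutants and Control(Ror2) beside the Ror2 mutants. How Vangl1 enters is not stated there. Vangl2 is a core protein of planar cell polarity, and Ror2 is a receptor for Wnt5a. The Cre is expressed from the Sox9 locus, and the genotype entry of the controls is WT, with no statement of whether they carried Cre. Loss of the floxed gene therefore cannot be told apart from the loss of 1 Sox9 allele or the presence of Cre. Sox9-Cre acts in distal lung epithelium and also in other tissues that express Sox9, such as cartilage, while the RNA was that of the whole lobe. In such bulk RNA fewer cells of a type and less RNA per cell cannot be told apart. In 2 mutant groups, Vangl2 P5 and Ror2 P2, the genotype entry conflicts with the title in naming the deleted gene, and groups were taken from the titles.

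In hedgehog signaling a secreted ligand, Sonic hedgehog or Indian hedgehog, binds the receptor Patched 1. Free Patched 1 holds the membrane protein Smoothened inactive, and binding of ligand lifts this block. Smoothened then acts through the primary cilium on the GLI transcription factors: GLI2 is the main activator, GLI3 is to a large part cut into a repressor, and GLI1 is an activator whose own gene is switched on by the pathway. Gli1, Ptch1 and Hhip are target genes of the pathway and are widely used as readouts of it. Hedgehog interacting protein, the product of Hhip, binds the ligand at the cell surface. In the developing lung Shh is made by the epithelium, and Ptch1, Gli1, Gli2 and Gli3 are expressed chiefly in the mesenchyme around it, from which alveolar myofibroblasts arise. RNA counts do not show whether GLI proteins are present as activators or as repressors.

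The sequencing depth, where whole reads could be recovered from the normalized counts, was 16178031 to 21546673 reads on genes per lung, except in control lung 1 of Ror2 P5, which had 13823693. In that lung every gene on chromosomes 6 to 9 and X that was clearly expressed in both other control lungs was listed at 0. So were 530 of the 531 such genes on chromosome 5 from position 53698485 onward. Its values on chromosomes 5 to 9 and X were therefore treated as missing, which leaves 2 control lungs for Smo (chromosome 6), Hhip (chromosome 8) and Shh (chromosome 5) in Ror2 P5. Shh lies before that position, and the deposited value of 922 normalized counts in this lung is given beside the result it touches. The deleted genes were checked against the labels. Vangl2 was at 369, 314 and 292 in the control lungs and 169.5, 148 and 166 in the mutant lungs of Vangl2 P5, or 49.9% of control (limma adjusted p = 0.0604; 0.0194 when same-numbered lungs were paired), and at 249, 302 and 281 in the control lungs and 241, 224 and 173 in the mutant lungs of Vangl2 P2, a log2 difference, mutant minus control with its standard error, of -0.39 ± 0.18 (limma adjusted p = 0.241). The groups did not overlap at either age. Ror2 was at 451, 581 and 519.8 in the control lungs and 479, 349 and 366 in the mutant lungs of Ror2 P2 (-0.38 ± 0.16, limma adjusted p = 0.25) and at 526, 368 and 597 in the control lungs and 362, 439.7 and 521 in the mutant lungs of Ror2 P5 (-0.16 ± 0.20, limma adjusted p = 0.691). Its groups overlapped at both ages, so that in whole-lobe RNA its level does not check the Ror2 labels. In the Vangl2 mutants Ror2 differed by -0.011 ± 0.12 at P2 and -0.48 ± 0.25 at P5 (limma adjusted p of 0.968 and 0.348). Vangl2 differed by -0.21 ± 0.14 in Ror2 P2 and -0.28 ± 0.22 in Ror2 P5 (limma adjusted p of 0.404 and 0.507). The groups overlapped in each of these. Sox9 differed by 0.17 ± 0.26 in Vangl2 P2, -0.51 ± 0.24 in Vangl2 P5, -0.57 ± 0.19 in Ror2 P2 and -1.17 ± 0.26 in Ror2 P5, with limma adjusted p of 0.733, 0.304, 0.211 and 0.116. Its groups overlapped in Vangl2 P2. In Vangl2 P5, Ror2 P2 and Ror2 P5 its mutant lungs lay below all controls, as for 12.5%, 12.2% and 14.4% of all genes tested. In Ror2 P5 it was at 83.0, 155 and 102 in the control lungs and 53.9, 40.7 and 50.6 in the mutant lungs. Epithelial and mesenchymal markers were abundant in every lung, with Sftpc the leading gene of the epithelial list and Col3a1 that of the matrix fibroblast list.

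Of the members that the results turn on, 3 (Gli2, Smo and Hhip) have a promoter in the RefSeq table of the same assembly whose upstream part overlaps no annotated exon, and these are shown because their levels lay lower in mutant lungs. They are the 250 bases before the RefSeq transcription start (GRCm38.p6, 5′ to 3′ in the direction of the gene), with CG dinucleotides in capitals.
Gli2 promoter, chr1:119053620-119053869, minus strand: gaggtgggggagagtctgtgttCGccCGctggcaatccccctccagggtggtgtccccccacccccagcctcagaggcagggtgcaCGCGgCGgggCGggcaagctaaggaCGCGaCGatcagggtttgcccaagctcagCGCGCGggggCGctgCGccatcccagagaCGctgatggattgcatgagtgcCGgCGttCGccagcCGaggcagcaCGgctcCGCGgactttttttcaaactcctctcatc
Smo promoter, chr6:29735247-29735496, plus strand: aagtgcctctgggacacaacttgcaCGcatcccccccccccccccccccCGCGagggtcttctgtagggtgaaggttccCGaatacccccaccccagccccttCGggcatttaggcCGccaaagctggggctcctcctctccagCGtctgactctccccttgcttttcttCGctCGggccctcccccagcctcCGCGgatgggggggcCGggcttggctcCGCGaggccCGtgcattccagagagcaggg
Hhip promoter, chr8:80058009-80058258, minus strand: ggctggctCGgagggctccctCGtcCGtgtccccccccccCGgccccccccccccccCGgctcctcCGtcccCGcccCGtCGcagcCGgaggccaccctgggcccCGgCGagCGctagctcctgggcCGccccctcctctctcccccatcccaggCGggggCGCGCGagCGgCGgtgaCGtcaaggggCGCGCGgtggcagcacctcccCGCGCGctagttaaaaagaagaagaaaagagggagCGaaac
These stretches hold 22, 15 and 28 CG dinucleotides, against a median of 6 and an upper quartile of 16 over the 32851 promoters of the table. Among the members not shown, Ptch1, whose groups overlapped in every comparison, holds 41, Gli3 34 and Ihh 24. The 6 members with a promoter in the table (Ihh, Ptch1, Smo, Gli2, Gli3 and Hhip) were searched on both strands for GACCACCCA, the consensus site of the GLI factors. It was found in 0 of the 6, and in 0.225% of all promoters of the same length. At so low a share, its absence from 6 promoters tells nothing about these genes.

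To compare levels between genes, the normalized counts were divided by the annotated exon length of each gene (GENCODE, GRCm38). In the control lungs of Vangl2 P2 the level per kb of exon was 556 for Hhip, 460.1 for Smo, 435 for Shh, 228 for Gli1, 209 for Ptch1, 100.4 for Gli2, 97.6 for Gli3 and 1.91 for Ihh. Hhip led and Ihh stood last in all 4 control groups. Smo and Shh came next in each and their control lungs overlapped except in Ror2 P5, followed by Gli1 and Ptch1, which overlapped in all 4 tables, and by Gli2 and Gli3, which also overlapped in all 4. In every table the lowest control lung lay above the highest of the next gene for the steps from Hhip to Smo, from Shh to Gli1 and from Ptch1 to Gli2 or Gli3.

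**Figure D1:**
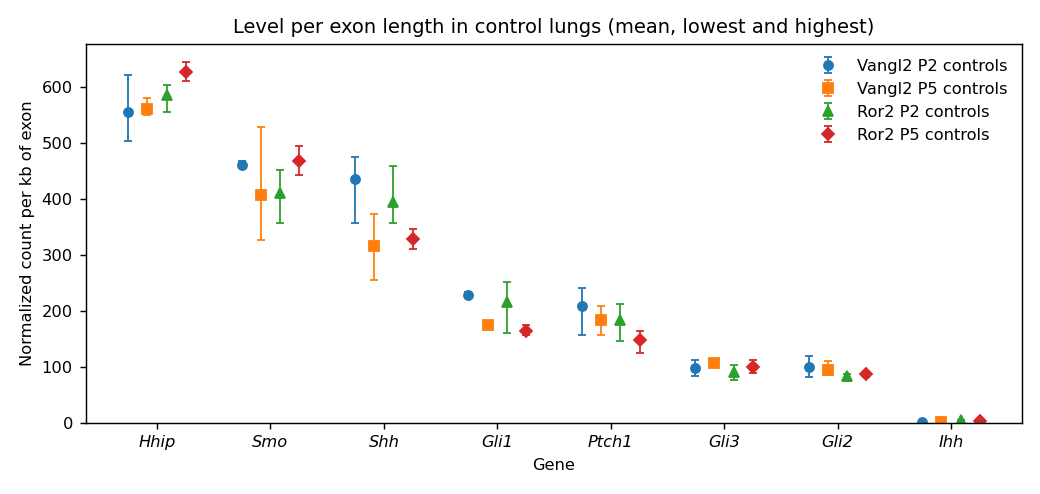
Normalized count per kb of annotated exon (vertical axis) for each gene in the control lungs of the 4 tables. Symbols are means and bars run from the lowest to the highest control lung. Hhip is highest and Ihh is close to 0 in every table.

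None of the 8 genes passed the test in any comparison (limma on log2 of the normalized count plus 1, Benjamini-Hochberg adjusted p under 0.05 over all genes tested). The lowest adjusted p among the 8 was 0.0546 in Vangl2 P2, 0.124 in Vangl2 P5, 0.205 in Ror2 P2 and 0.11 in Ror2 P5. Of all genes tested, 3.59% (626 of 17448) were called in Vangl2 P2, 0.563% (98 of 17410) in Vangl2 P5, 0% (0 of 17541) in Ror2 P2 and 0.18% (31 of 17177) in Ror2 P5. The count of 0 in Ror2 P2 stands beside 3380 genes at an unadjusted p under 0.05, 0 calls by edgeR and 803 calls by DESeq2 on the recovered reads. In Vangl2 P5 the deviations of same-numbered control and mutant lungs were correlated, so the fit with the replicate number as a block is given there as well. This pairing was read from the values, as the titles give replicate numbers but name no pairs. A block picked from the same values can make its p-values too small. With this block 8.95% of all genes tested (1558) were called, and among them 2 of the 8, Gli3 (adjusted p = 0.0408) and Smo (adjusted p = 0.0456), both lower in the mutant lungs.

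**Figure D2:**
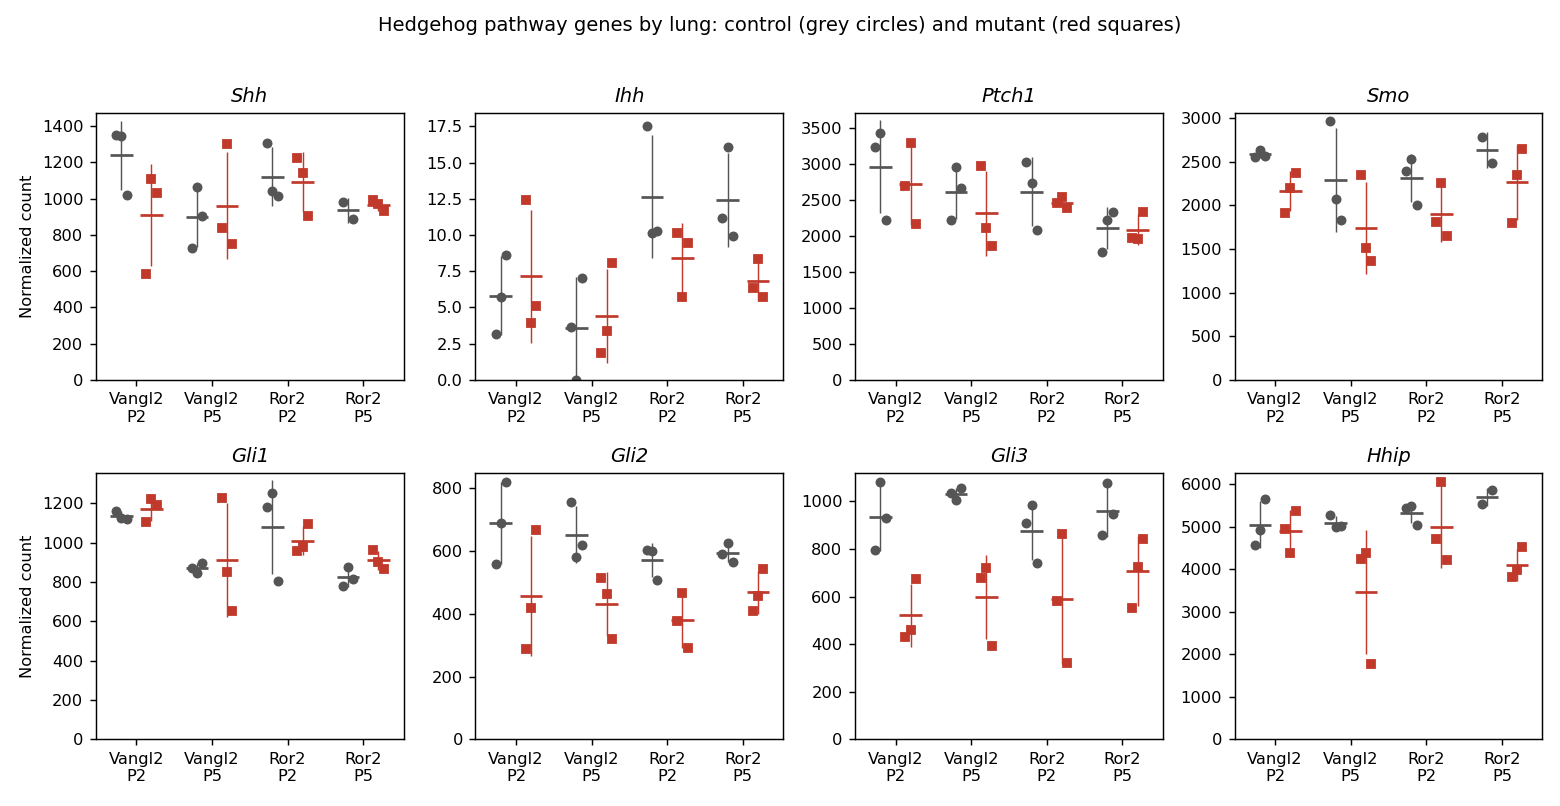
Normalized counts (vertical axes, each from 0) of the 8 genes in every lung, by comparison. Points are lungs, horizontal lines are group means and vertical lines are SD (n = 3 lungs, 2 for the controls of Shh, Smo and Hhip in Ror2 P5). Gli2 and Gli3 lie lower in the mutant groups, while Gli1, Ptch1 and Shh overlap throughout.

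The members fell into different patterns. The fitted difference of Gli2, Gli3, Smo, Ptch1 and Hhip was below 0 in all 4 comparisons, which holds for 21.1% of the 16723 genes tested in all 4, and that of Ptch1 stayed within -0.20 and -0.013. For Gli2 and for Gli3 the highest mutant lung lay below the lowest control lung in 3 of the 4 comparisons, a pattern met by 4.44% of these genes. Within 1 comparison, mutant lungs lay below all controls for 2 of the 8 genes in Vangl2 P2 (14.9% of all genes tested), 3 in Vangl2 P5 (12.5%), 1 in Ror2 P2 (12.2%) and 4 in Ror2 P5 (14.4%, where genes with 2 control lungs separate more easily). Mutant lungs lay above all controls for 0 of the 8 genes in each comparison, against 14.6%, 13.2%, 13.4% and 15.6% of all genes tested in Vangl2 P2, Vangl2 P5, Ror2 P2 and Ror2 P5. The median difference over the 8 was -0.19, -0.30, -0.20 and -0.29 on the log2 scale in the same order, and that over all genes tested lay between -0.0059 and 0.0036.

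**Figure D3:**
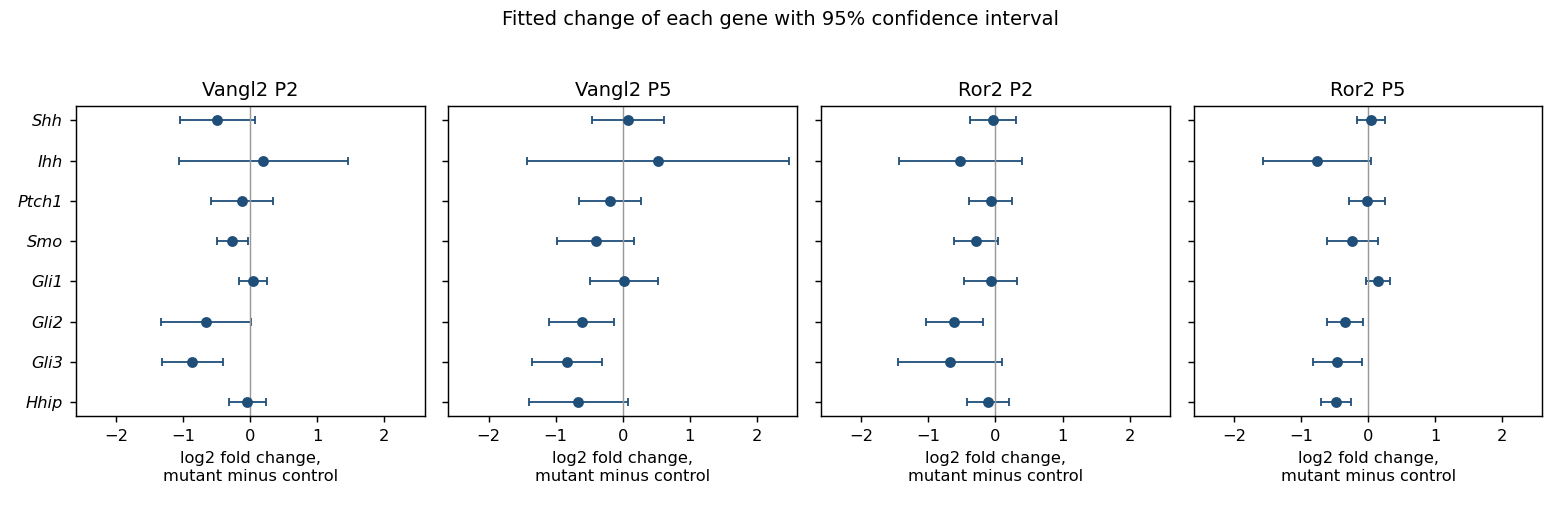
Log2 fold change, mutant minus control (horizontal axes), of the 8 genes in each comparison, with 95% confidence intervals from limma. Gli3 has intervals below 0 in Vangl2 P2, Vangl2 P5 and Ror2 P5, and Gli2 in Vangl2 P5, Ror2 P2 and Ror2 P5, while those of Gli1 and Ptch1 span 0 in all 4.

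Gli3 (chr13:15463235-15730026, plus strand), which encodes the GLI protein that acts largely as a repressor, had the lowest mutant level relative to control of the 8 genes in both Vangl2 comparisons. In Vangl2 P2 it was at 797, 1082 and 929 in the control lungs and 430.0, 459 and 674 in the mutant lungs, and the groups did not overlap. The fitted difference was -0.86 ± 0.19 (log2, SE), or 55.0% of the control level, with a limma adjusted p of 0.0546. It passed the threshold with DESeq2 on the recovered reads (adjusted p = 0.00254), a fit that called 2001 of all genes. It did not pass with edgeR on the same reads, which called 641 of all genes and 0 of the 8 members. Gli3 also passed in limma without mutant lung 3, the highest of the mutants (limma adjusted p = 0.0109, with 2308 genes called). With another lung left out the limma adjusted p reached 0.229. In Vangl2 P5 the values were 1037, 1005 and 1056 in the control lungs and 680.0, 721 and 394 in the mutant lungs, with the 3 controls within a narrow band and mutant lung 3 lowest. The difference was -0.84 ± 0.23 (limma adjusted p = 0.124, and 0.0408 with the replicate block). In Ror2 P2 Gli3 was at 908, 984 and 741 in the control lungs and 580.4, 864 and 322 in the mutant lungs. Here mutant lung 2 lay among the controls and mutant lung 3 far below them, and the difference was -0.68 ± 0.33 (limma adjusted p = 0.298). In Ror2 P5 it was at 857, 1077 and 946 in the control lungs and 551, 725 and 844 in the mutant lungs, again without overlap, with a fitted difference of -0.46 ± 0.16 (limma adjusted p = 0.202). Without control lung 1, which lacks several chromosomes, the Ror2 P5 value was -0.54 (limma adjusted p = 0.253). The exact permutation p was 0.1 for Vangl2 P2, Vangl2 P5 and Ror2 P5, the smallest that 3 lungs against 3 allow in a two-sided test.

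Gli2 (chr1:118834132-119053619, minus strand), the gene of the main activator, was also below its control mean in all 4 comparisons. Its normalized counts in Vangl2 P2 were 559, 689 and 821 in the control lungs and 288, 419 and 665 in the mutant lungs. Mutant lung 3 lay among the controls while the others lay below them, and the difference was -0.66 ± 0.29 (limma adjusted p = 0.231). Without mutant lung 3 it was -0.97 (limma adjusted p = 0.0307, with 2308 of all genes called). With another lung left out the limma adjusted p reached 0.476. In Vangl2 P5 Gli2 was at 755, 582 and 618 in the control lungs and 515, 463 and 318 in the mutant lungs, a difference of -0.61 ± 0.21 (limma adjusted p = 0.185, and 0.0501 with the replicate block). In Ror2 P2 it was at 603, 600.2 and 508 in the control lungs and 378, 467 and 291 in the mutant lungs. The difference was -0.61 ± 0.18, or 65.4% of control (limma adjusted p = 0.205). Without mutant lung 2 the limma adjusted p was 0.0478, in a fit that called 849 of all genes against 0 with all lungs. With another lung left out it reached 0.529. In Ror2 P5 it was at 591, 627 and 566 in the control lungs and 408, 456 and 543 in the mutant lungs, with a fitted difference of -0.35 ± 0.12 (limma adjusted p = 0.189). The groups were apart in Vangl2 P5, Ror2 P2 and Ror2 P5. Across the 23 lungs with values on all chromosomes, the deviations of Gli2 and Gli3 from their group means, which share library and size factor, had a Pearson r of 0.81, the highest of any pair among the 7 members with a mean of at least 50 normalized counts.

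The mutant lungs also differed in cell type and cell cycle markers, and the part of these in the values of Gli2 and Gli3 was not tested. The summed level of the 12 matrix fibroblast markers, led by Col3a1, was 143519 to 158207 in controls and 105532 to 119529 in mutants of Vangl2 P2, 178556 to 204264 and 83405 to 141535 in Vangl2 P5, 139943 to 154223 and 86284 to 130101 in Ror2 P2, and 180805 to 190449.6 (2 lungs) and 130266 to 168394 in Ror2 P5. Its mutant lungs lay below all controls each time, with 1 marker called, lower, in Vangl2 P2 and 0 in each other comparison. The median difference of the 12 markers was -0.28, -0.65, -0.41 and -0.18 in the same order. Of these markers only 7, 8, 10 and 7 had a fitted difference below 0. The lung with the least Gli3 was also the one with the lowest matrix fibroblast sum in Vangl2 P5 (mutant lung 3, 83405), Ror2 P2 (mutant lung 3, 86284) and Ror2 P5 (mutant lung 1, 130266), and not in Vangl2 P2. The 12 myofibroblast and smooth muscle markers had a median difference of -0.23 in Vangl2 P2, -0.56 in Vangl2 P5, -0.100 in Ror2 P2 and -0.24 in Ror2 P5, with 1, 0, 0 and 1 called lower. Their sum, led by Eln, went the other way at P2: it was 108640.1 to 133099 in controls and 140358 to 242414 in mutants of Vangl2 P2, and 101126 to 137665 and 131186 to 179996 in Ror2 P2, where the groups overlapped but the median lung was higher in mutants. All 10 proliferation markers fell in Vangl2 P2 (10 of 10 called, median difference -1.84), and the median was -1.90 in Ror2 P2 with 0 called, -0.68 in Vangl2 P5 and -0.84 in Ror2 P5, both also with 0 called. Their sum was 15201 to 25716 in controls and 4156 to 8403 in mutants of Vangl2 P2, 17165 to 28129.7 and 12263 to 20194 in Vangl2 P5, 11336 to 23891 and 1633 to 12446 in Ror2 P2, and 15008 to 16529 (2 lungs) and 5305 to 13652 in Ror2 P5, with overlap in Vangl2 P5 and Ror2 P2. The mutant lung with the least Gli3 had the lowest proliferation sum in Vangl2 P2, Ror2 P2 and Ror2 P5, but the highest of the mutants in Vangl2 P5 (mutant lung 3, 20194). The 15 lung epithelium markers had medians of 0.49, 0.49, 0.20 and 0.23 in the order Vangl2 P2, Vangl2 P5, Ror2 P2 and Ror2 P5, with 3, 0, 0 and 1 called higher.

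Gli1 (chr10:127329882-127341974, minus strand), the readout most closely tied to pathway activity, showed no difference beyond the spread between lungs. In Vangl2 P2 it was at 1164, 1128 and 1123 in the control lungs and 1104, 1224 and 1191 in the mutant lungs, a difference of 0.042 ± 0.090 with a 95% confidence interval of -0.17 to 0.25. In Vangl2 P5 it was at 869, 848 and 897 in the control lungs and 1229, 853 and 654 in the mutant lungs. Mutant lung 1 was above and mutant lung 3 below all controls, and the interval was -0.48 to 0.52. In Ror2 P2 the values were 1181, 1254 and 806 in the control lungs and 957, 979 and 1097 in the mutant lungs, with an interval of -0.47 to 0.33. In Ror2 P5 they were 779.8, 875 and 816 in the control lungs and 962, 903 and 865 in the mutant lungs, with an interval of -0.036 to 0.33. The limma adjusted p was 0.811, 0.976, 0.833 and 0.355 in this order. The sign of the Gli1 change depended on single lungs in Vangl2 P5 and Ror2 P2, where it crossed 0 when a control or mutant lung was left out.

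Ptch1 (chr13:63508328-63573598, minus strand), the receptor gene that the pathway itself induces, also overlapped between groups everywhere. Its normalized counts were 3235, 3422 and 2222 in the control lungs and 2685, 3286 and 2163 in the mutant lungs of Vangl2 P2, and 2213, 2959.9 and 2659 in the control lungs and 2966, 2109 and 1851 in the mutant lungs of Vangl2 P5. In Ror2 P2 they were 3019.8, 2735 and 2080.1 in the control lungs and 2458, 2538 and 2386 in the mutant lungs, and in Ror2 P5 1779.7, 2212 and 2329 in the control lungs and 1965, 1951 and 2329 in the mutant lungs. The differences were -0.12 ± 0.20, -0.20 ± 0.20, -0.069 ± 0.14 and -0.013 ± 0.12, with limma adjusted p of 0.755, 0.646, 0.797 and 0.966. The widest of the intervals, in Vangl2 P2, ran from -0.59 to 0.35.

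With Gli1 near its control level and Gli3 and Gli2 lower in most mutant lungs, their ratio within a lung, which does not depend on the size factor, is given as a description chosen after the values were seen. The ratio of Gli1 to Gli3 in Vangl2 P2 was 1.46, 1.04 and 1.21 in the control lungs and 2.57, 2.67 and 1.77 in the mutant lungs. In Vangl2 P5 it was 0.84, 0.84 and 0.85 in the control lungs and 1.81, 1.18 and 1.66 in the mutant lungs. In Ror2 P2 it was 1.30, 1.27 and 1.09 in the control lungs and 1.65, 1.13 and 3.40 in the mutant lungs, where mutant lung 2 overlapped the controls, and in Ror2 P5 0.91, 0.81 and 0.86 in the control lungs and 1.75, 1.25 and 1.03 in the mutant lungs. The ratio was thus higher in every mutant lung than in any control in 3 of the 4 comparisons. This restates the Gli3 and Gli1 values above and was not set against other gene pairs. The ratio of Gli1 to Gli2 was separate in Vangl2 P5, Ror2 P2 and Ror2 P5, and overlapped in Vangl2 P2, where mutant lung 3 was at 1.79 and control lung 1 at 2.08. The ratio of Gli2 to Gli3 overlapped in all 4 comparisons.

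**Figure D4:**
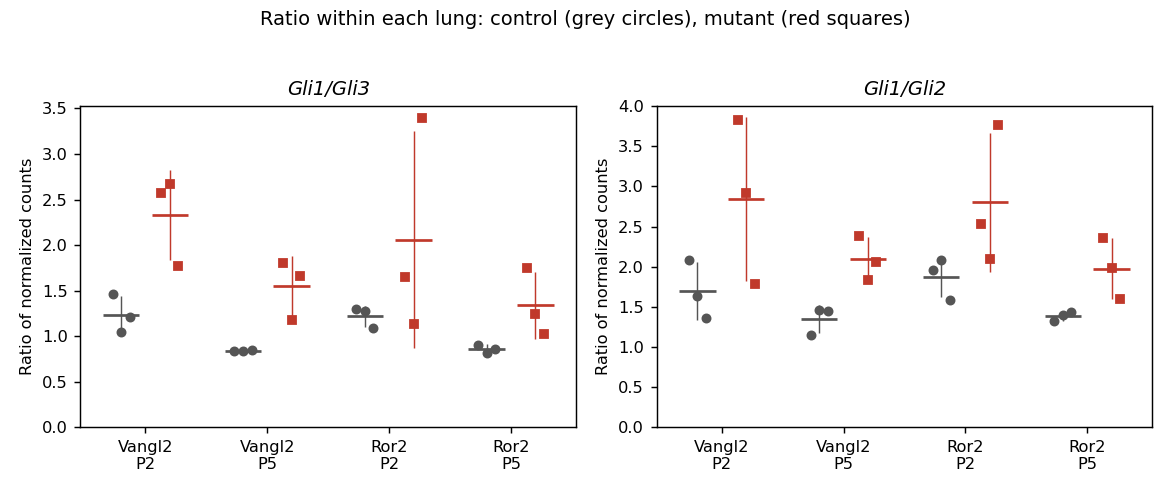
Ratio of normalized counts within each lung (vertical axes, from 0): Gli1 over Gli3 on the left and Gli1 over Gli2 on the right, by comparison. Points are lungs, horizontal lines are means and vertical lines are SD (n = 3). Mutant lungs lie above all controls except in Ror2 P2 for Gli3 and in Vangl2 P2 for Gli2.

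Smo (chr6:29735503-29761365, plus strand), the gene of the signal transducer Smoothened, was lower by a smaller margin. In Vangl2 P2 it was at 2557, 2633 and 2568 in the control lungs and 1914, 2203 and 2365 in the mutant lungs, without overlap, and the difference was -0.26 ± 0.10 (limma adjusted p = 0.179). In Vangl2 P5 it was at 2968, 2070.1 and 1832 in the control lungs and 2345, 1515 and 1366 in the mutant lungs. Each mutant lung lay below the control of the same number, although the groups overlapped, and the difference of -0.40 ± 0.25 had a limma adjusted p of 0.423 without and 0.0456 with the replicate block. In Ror2 P2 the difference was -0.29 ± 0.14 (limma adjusted p = 0.302), and in Ror2 P5, with 2 control lungs, -0.24 ± 0.16 (adjusted p = 0.461). The groups overlapped in both Ror2 comparisons.

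Hhip (chr8:79965851-80058006, minus strand), the target gene that encodes the ligand-binding Hedgehog interacting protein, was near its control level at P2 and lower at P5. At P2 the difference was -0.043 ± 0.12 in the Vangl2 mutants and -0.11 ± 0.13 in the Ror2 mutants, and the groups overlapped. In Vangl2 P5 Hhip was at 5266, 4994 and 5019 in the control lungs and 4229, 4376 and 1781 in the mutant lungs. All mutant lungs lay below the controls, but mutant lung 3 was far below the other mutants. The difference was -0.67 ± 0.32 (limma adjusted p = 0.31), and -0.24 without mutant lung 3 (adjusted p = 0.446). In Ror2 P5 it was at 5542 and 5853 in the control lungs and 3811, 3979 and 4517 in the mutant lungs. The mutant lungs were again all below the controls, at 71.9% of their level, with a difference of -0.48 ± 0.095 (limma adjusted p = 0.11). Without mutant lung 3 the limma adjusted p was 0.0307, in a fit that called 742 of all genes against 31 with all lungs. With another lung left out it reached 0.429. The exact permutation p was 0.1 in Vangl2 P5 and 0.2 in Ror2 P5, the smallest values that 3 against 3 and 3 against 2 lungs allow.

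Shh (chr5:28456815-28467256, minus strand), the ligand gene of the lung epithelium, was at 1350.3, 1348 and 1019 in the control lungs and 586, 1107 and 1029.8 in the mutant lungs of Vangl2 P2. Mutant lung 1 lay far below all others, and the difference was -0.49 ± 0.24 (limma adjusted p = 0.28), or -0.20 without that lung. In Vangl2 P5 Shh was at 728, 1064 and 906 in the control lungs and 837, 1299 and 749.7 in the mutant lungs. In Ror2 P2 it was at 1309, 1040.4 and 1014 in the control lungs and 1227, 1143 and 905 in the mutant lungs. In Ror2 P5 it was at 984 and 886 in the control lungs and 991, 971 and 930.4 in the mutant lungs. In these 3 comparisons the differences were 0.072 ± 0.23, -0.041 ± 0.15 and 0.045 ± 0.086, with limma adjusted p of 0.901, 0.895 and 0.801. With the deposited value of control lung 1 kept, the Ror2 P5 change of Shh was 0.052 (limma adjusted p = 0.721). The epithelial markers had medians above 0 in all 4 comparisons (given above). Ihh (chr1:74945315-74951672, minus strand), a ligand best known from cartilage and gut, was barely detected: its normalized counts ran from 0 to 17.5 over the 24 lungs, with a single lung, control 2 of Vangl2 P5, listed at 0. In Ror2 P5 it was at 11.2, 16.1 and 9.92 in the control lungs and 6.34, 8.35 and 5.73 in the mutant lungs, without overlap, and the difference was -0.77 ± 0.35 (limma adjusted p = 0.287). In the other comparisons its groups overlapped.

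Whether the response differed between mutants or ages was tested on the differences of the mutant-control contrasts, each within its own table. No member's change differed at an adjusted p under 0.05 (limma, 12 lungs) between Vangl2 and Ror2 mutants at P2 or P5, or between P5 and P2 in either mutant. Of all genes tested, 0% (0 of 17137), 0.0118% (2 of 16886), 0% (0 of 17068) and 0% (0 of 16990) were called in these 4 tests, with 788, 798, 1442 and 1613 genes at an unadjusted p under 0.05, and none of the 8 members was among the latter. The difference for Gli3 between the mutants was -0.19 (95% confidence interval -1.10 to 0.73) at P2 and -0.38 (95% confidence interval -1.03 to 0.28) at P5. For Gli2 it was -0.046 (95% confidence interval -0.88 to 0.79) at P2 and -0.26 (95% confidence interval -0.81 to 0.29) at P5. The intervals are wide enough to hold differences as large as the changes themselves. The lowest unadjusted p of the 32 member tests, 0.068, was that of Hhip between P5 and P2 in the Ror2 mutants, where the difference was -0.37 (95% confidence interval -0.77 to 0.032) and the limma adjusted p 0.563. In the Vangl2 mutants the same difference was -0.62 (95% confidence interval -1.45 to 0.20), with a limma adjusted p of 0.639.

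The ligand gene and the 3 readout genes were also compared across lungs within groups, over the 23 lungs with values on all chromosomes. For each lung the deviation of the log2 level from the mean of its own group was used, and 6 pairs were tested by permutation within groups (100000 resamples, two-sided, Benjamini-Hochberg over the 6 pairs). For Shh and Gli1 Pearson's r was 0.15 (permutation p = 0.713, adjusted 0.713) and Spearman's rho 0.16 (permutation p = 0.572). For Gli1 and Ptch1, both of them readouts, r was 0.59 (permutation p = 0.0522, adjusted 0.313) and rho 0.37 (permutation p = 0.156), but without the 2 lungs farthest from the median of Gli1, mutant lungs 1 and 3 of Vangl2 P5, r was 0.37, and within tables it was 0.28 in Vangl2 P2, 0.83 in Vangl2 P5, 0.84 in Ror2 P2 and -0.77 in Ror2 P5. For Shh and Ptch1 r was 0.32 (permutation p = 0.313, adjusted 0.713), and 0.49 (adjusted permutation p = 0.0404) without mutant lung 1 of Vangl2 P2 and mutant lung 2 of Vangl2 P5. Its values within tables were 0.36, 0.24, 0.59 and -0.69 in the same order. The pairs with Hhip gave r of 0.27 with Shh, 0.51 with Gli1 and 0.22 with Ptch1 (adjusted permutation p = 0.713 for each). The r of Gli1 and Hhip rested on mutant lungs 1 and 3 of Vangl2 P5 and was -0.13 without them. No pair passed at an adjusted p under 0.05 over all 23 lungs.

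Among the 13202 genes with a mean of at least 50 normalized counts, the 5 whose within-group deviations were most like those of Gli1 over the same 23 lungs were Hyi (r = 0.82), 2810025M15Rik (r = 0.81), 4930429F24Rik (r = 0.80), Gdpd5 (r = 0.79) and Large (r = 0.78), with r as Pearson's r. The member most like Gli1 was Ptch1 (r = 0.59). The 5 most like Shh were C430049B03Rik (r = 0.93), Nutf2 (r = 0.93), Eid1 (r = 0.92), Arxes2 (r = 0.90) and Ppp1r3c (r = 0.90), and the member most like Shh was Gli3 (r = 0.44). No member was among either set of 5. The lungs share their library depth and size factors over genes, and the values are descriptive.

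Beyond the 8 members, 60 further genes of the pathway were read from 4 lists: ligand processing and release (10 genes), surface coreceptors and receptors (8), cilium and Smo transduction (26 in the tables) and hedgehog responsive genes (16). In Vangl2 P2, 1 of the 60 rose and 2 fell, in Vangl2 P5 and in Ror2 P2 0 were called in either direction, and in Ror2 P5 1 fell, against the shares of all genes given above. With the replicate block, 2 rose and 7 fell in Vangl2 P5, where that fit called 8.95% of all genes tested. The median difference of the 60 was -0.16, -0.23, -0.046 and -0.059 in Vangl2 P2, Vangl2 P5, Ror2 P2 and Ror2 P5, with 41, 47, 32 and 37 of them below 0.

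The 3 calls of Vangl2 P2 were all in the list of hedgehog responsive genes. Foxf2, a mesenchymal forkhead factor downstream of hedgehog signaling, fell from 1923 ± 75.4 to 1148 ± 173 normalized counts (SD, n = 3), a change of -0.75 ± 0.13, limma adjusted p = 0.0326. It was at 3031, 3780.4 and 3742 in the control lungs and 1685, 2246 and 1204 in the mutant lungs of Vangl2 P5, without overlap, a difference of -1.08 ± 0.23 with a limma adjusted p of 0.0823 without and 0.0212 with the replicate block. In the Ror2 mutants its groups overlapped, with -0.19 ± 0.13 at P2 and -0.36 ± 0.26 at P5. Ccnd1, which encodes the cell cycle regulator cyclin D1, fell by 0.73 ± 0.14 on the log2 scale in Vangl2 P2 (limma adjusted p = 0.0396). The proliferation markers fell in the same lungs. Ccnd1 differed by -0.82 ± 0.21 in Vangl2 P5 (limma adjusted p = 0.115, and 0.0241 with the replicate block), and in Ror2 P2 by -0.51 ± 0.23 (limma adjusted p = 0.271). Over the alternatives run in Ror2 P2 its adjusted p ranged from 0.0374, without mutant lung 2 (849 of all genes called), to 0.553. Hsd11b1, whose product regenerates active glucocorticoid, rose from 878 ± 162 to 1948 ± 540.4 normalized counts in Vangl2 P2 (SD, n = 3), a change of 1.12 ± 0.22, limma adjusted p = 0.0398. Its difference was 0.81 ± 0.20 in Vangl2 P5, 0.99 ± 0.41 in Ror2 P2 and 0.46 ± 0.12 in Ror2 P5 (limma adjusted p of 0.106, 0.253 and 0.142, and 0.0442 with the block in Vangl2 P5). Each of the 3 calls in Vangl2 P2 was lost when any 1 of the 3 control lungs was left out, with adjusted p between 0.079 and 0.187, and when mutant lung 2 was left out (adjusted p of 0.0722 for Foxf2, 0.122 for Ccnd1 and 0.127 for Hsd11b1). Those of Ccnd1 and Hsd11b1 were also lost without mutant lung 1 (adjusted p of 0.0582 and 0.0626).

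The call of Ror2 P5 was Disp2, a homolog of the transporter-like protein Dispatched 1 that releases the lipid-bound ligand from the cell. It was at 323, 399.6 and 441 in the control lungs and 196, 186 and 192 in the mutant lungs, and the difference was -1.01 ± 0.14, limma adjusted p = 0.0475. The 3 mutant lungs lay close together and at 49.8% of the control level, but the call was lost in 10 of the 16 alternatives run, with adjusted p from 0.0295 to 0.385 over all of them. These include leaving out control lung 1, which lacks several chromosomes (0.08), control lung 2 (0.293), control lung 3 (0.261) or mutant lung 2 (0.299), a pseudocount of 10 (0.06), no filter on low values (0.0523) and a minimum mean of 10 (0.0511). In Vangl2 P5 it did not overlap either (538, 331 and 319 in the control lungs and 273, 119 and 116 in the mutant lungs; -1.30 ± 0.37, limma adjusted p = 0.13, and 0.0132 with the replicate block), and its fitted difference was -0.74 ± 0.35 in Vangl2 P2 and -0.93 ± 0.31 in Ror2 P2 (limma adjusted p of 0.261 and 0.212).

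Of the 3 genes with the lowest p in each other comparison, Kif7, the ciliary kinesin that regulates GLI proteins, differed by -0.68 ± 0.16 in Vangl2 P5 (limma adjusted p = 0.101, and 0.0324 with the replicate block). In Ror2 P2 these were Stk36, the mammalian homolog of the kinase Fused with a known role in motile cilia, at 359, 469 and 500.2 in the control lungs and 1155, 952 and 1062 in the mutant lungs (1.26 ± 0.14, limma adjusted p = 0.203), Tbx3, a T-box factor of the lung mesenchyme (0.47 ± 0.11, limma adjusted p = 0.203), and Dyrk2, a kinase that phosphorylates GLI proteins (0.42 ± 0.098, limma adjusted p = 0.203). The groups did not overlap for any of the 3, all higher in the mutants, as for 13.4% of all genes tested, and the 3 were picked by their low p. DESeq2 on the recovered reads called 803 genes, with each of the 3 among them (adjusted p of 3.80e-10, 0.014 and 0.0252). On the same reads edgeR called 0 of 17541. In Ror2 P5 they were, beside Disp2, the coreceptor gene Boc (-0.42 ± 0.078, limma adjusted p = 0.0885, groups apart) and the mesenchymal forkhead gene Foxl1 (-0.69 ± 0.17, limma adjusted p = 0.136, 2 control lungs, groups apart). Mutant lungs lay below all controls for 14.4% of all genes tested there.

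**Figure D5:**
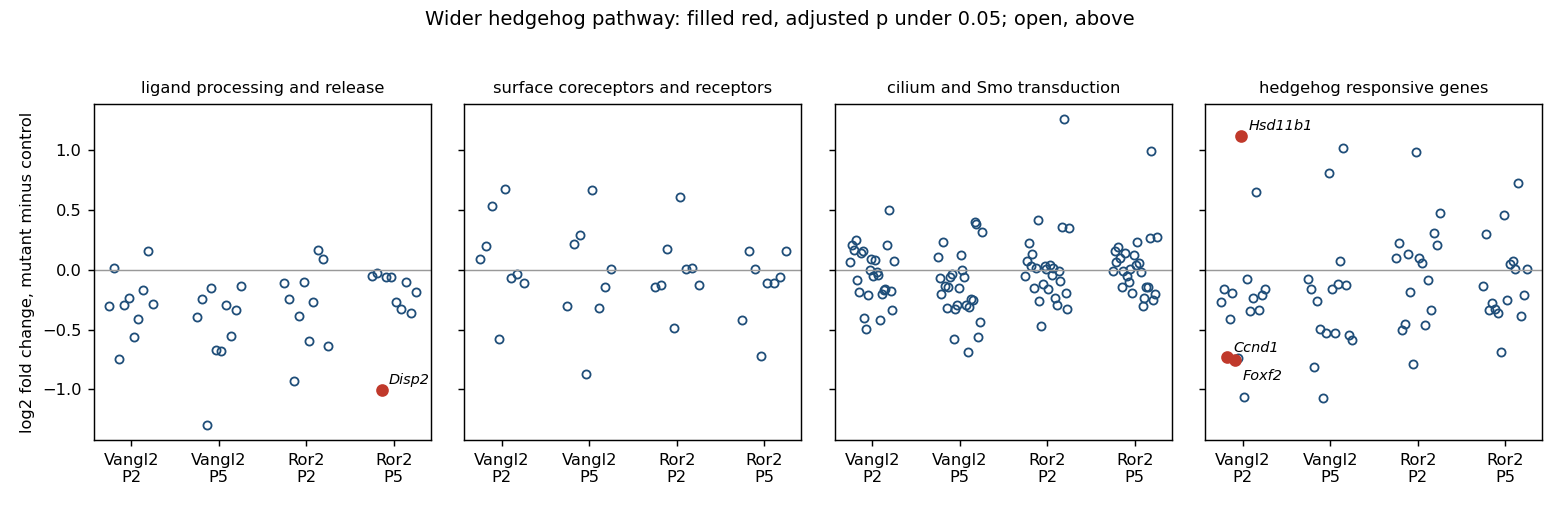
Log2 fold change, mutant minus control (vertical axis), of the 60 further pathway genes by list and comparison. Each symbol is a gene, and filled red symbols with a name are those with a limma adjusted p under 0.05. The 4 filled points are Foxf2, Ccnd1 and Hsd11b1 in Vangl2 P2 and Disp2 in Ror2 P5.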

How the data were processed

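The authors extracted RNA from left lung lobes and sequenced it on Illumina HiSeq instruments. Per the labels, the processing notes name mm10 and DESeq2; the aligner, read counter and annotation are not given in the sources used here. For each comparison the authors deposited 1 table of 23420 genes with signal values, that is, normalized counts: reads on a gene over the size factor of the lung. The deposited tables also hold the authors' own fold changes, errors, statistics and p-values, which were not used. 0 columns of lungs were left unmapped.

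Whole reads were recovered in 21 of 24 lungs (100% of values within 0.02 of a whole read). Genes with at least 1 normalized count in at least 3 lungs of a table were tested with limma 3.58.1 (trend; R 4.3.3) on log2 of the normalized count plus 1, mutant against control within each table, and p-values were Benjamini-Hochberg adjusted over these genes; differences between contrasts were tested over 12 lungs. Adding 1 understates the change of low genes such as Ihh. edgeR 4.0.16 and DESeq2 1.42.0 were run on recovered reads at P2, where all lungs of both tables gave them. Single members were compared by exact permutation (scipy 1.17.1). In control lung 1 of Ror2 P5, 8240 genes on chromosomes 5 to 9 and X or without a chromosome were set to missing. The titles give replicate numbers but name no pairs, and a pairing in Vangl2 P5 was read from the values themselves. There the correlation over genes of same-numbered lungs' deviations from their group means was 0.38, 0.34 and 0.24, while at least 1 pair was at or below 0.1 in each other table. p-values measure the spread between the lungs listed as replicates.

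The members and gene lists were chosen with earlier results of these data known. The text names all 8 members, Vangl2, Ror2 and Sox9, each wider pathway gene with an adjusted p under 0.05 (at most 10 per comparison), the 3 with the lowest p per comparison and the 5 genes most like Gli1 and Shh. Alternatives were other pseudocounts and filters, TMM rescaling, robust moderation, a replicate block, all 12 lungs of an age, count tests and leaving out each lung. The scripts were tested on simulated data.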

Additional observations from a re-analysis of the deposited data

How the results depend on the processing

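The main counts of members called (0 in each comparison) moved as follows. With the replicate block the count was 1 in Vangl2 P2 (Gli3, with 795 of all genes called), 2 in Vangl2 P5 (Smo and Gli3) and 0 in both Ror2 comparisons. The titles name no pairs, and outside Vangl2 P5 the correlations of same-numbered lungs were between -0.092 and 0.21. The block changed no other member's call. DESeq2 gave 1 (Gli3) and edgeR 0 in Vangl2 P2, and all 12 lungs of the age gave 1 in Vangl2 P5 (Gli3). Leaving out each lung in turn gave 0 to 2 in Vangl2 P2, 0 to 1 in Ror2 P2 and 0 to 1 in Ror2 P5. Over all genes, calls numbered 50, 1023 and 3 in Vangl2 P2, Vangl2 P5 and Ror2 P5 with all 12 lungs, 2001 in Vangl2 P2 with DESeq2, 1 in Ror2 P2 and 1 in Ror2 P5 with the block, and 1 to 2308, 0 to 53, 0 to 849 and 0 to 742 in the 4 comparisons with 1 lung left out. Leaving out 1 lung turned the sign of members with small changes, and the log2 changes then ran over the ranges that follow. In Vangl2 P2 these were Ihh -0.23 to 0.49, Hhip -0.11 to 0.041, Ptch1 -0.32 to 0.031 and Sox9 -0.11 to 0.34. In Vangl2 P5 these were Shh -0.17 to 0.23, Ihh -0.35 to 1.16 and Gli1 -0.22 to 0.23. In Ror2 P2 these were Shh -0.13 to 0.088, Ptch1 -0.22 to 0.044, Gli1 -0.27 to 0.049 and Hhip -0.26 to 0.0060. In Ror2 P5 these were Ptch1 -0.13 to 0.064 and Shh -0.030 to 0.12. Gli2 and Gli3 stayed below 0 under every alternative run. With control lung 1 of Ror2 P5 kept at its deposited zeros, the difference was 3.55 for Smo, 3.68 for Hhip, 3.87 for Ccnd1 and 1.82 for Foxl1, from the zeros of that lung alone. Without the 2 lungs farthest on the first gene, r was 0.49 for Shh and Ptch1 (past the threshold) and -0.13 for Gli1 and Hhip; the cause was not tested. Count tests were not run at P5, where reads were not recovered in every lung. The alternatives for the wider pathway genes and for keeping Shh in control lung 1 were chosen after seeing the data. In Vangl2 P2 the calls of Ccnd1 and Hsd11b1 were lost with all 12 lungs (adjusted p of 0.078 and 0.102) and that of Hsd11b1 with the block (0.0576). The call of Disp2 in Ror2 P5 was also lost with the block (adjusted p = 0.059), with all 12 lungs (0.233) and with control lung 1 kept (0.385).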

Other observations

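Further marker lists gave these values, with medians of the log2 change in the order Vangl2 P2, Vangl2 P5, Ror2 P2 and Ror2 P5. The 10 alveolar type I markers had medians of 0.34, 0.17, 0.44 and 0.15, with 1 gene called, higher, in Vangl2 P2 and 0 in the others. The 10 alveolar type II markers had medians of 0.41, 0.49, 0.30 and -0.062, with 3 called, all higher, in Vangl2 P2 and 0 in the others. The 10 endothelial markers had medians of 0.036, -0.49, 0.23 and 0.0027, with 0 called in any comparison. The cartilage markers (13 of 15 in the tables, 11 or 12 tested), a lineage in which Sox9 acts, had medians of 0.43, 1.33, -0.19 and -0.014, with 0 called. Their summed level was 918 to 1026 in controls and 1327 to 1369 in mutants of Vangl2 P5. In Ror2 P5 it was 578 to 653 (2 lungs) and 716 to 998. The groups overlapped in Vangl2 P2 (888 to 1314 and 1115 to 2183) and in Ror2 P2 (989 to 1654 and 863 to 1216, lower in mutants). The blood cell markers (8 of 10 in the tables, 7 or 8 tested) had medians of 0.90, 1.39, -0.43 and 0.32, with 2 called higher and 1 lower in Vangl2 P2 and 2 higher in Vangl2 P5.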
